A study of Mus musculus with 2 samples.

Results

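The Hox genes of the mouse lie in 4 clusters, a to d, and encode homeodomain transcription factors that carry a number for their position in the cluster. The members described here were the probe sets whose single platform gene symbol was Hox, a cluster letter and a number, with all probe sets kept. These were 48 probe sets of 33 genes, out of 18193 genes with a single symbol on the array and out of 39 Hox genes in the RefSeq gene table. RNA came from stromal cells that had been isolated from the uteri of C57BL/6 mice on day 4 of pregnancy, after mating with fertile males. One genotype was Msx1Msx2-null, in which floxed Msx1 and Msx2 were ablated by Cre from the PRcre line. The other was the Msx1Msx2 floxed control, for which the labels do not say whether a Cre allele was present. PRcre acts wherever the progesterone receptor gene is active, so the deletion is not limited to the stroma. Each genotype was 1 array of RNA pooled from 5 mice by the design text, or 4 by the extraction protocol. No replicate error can be given, no test was possible, and a difference may come from the genotype, the mice in the pool or the hybridization.

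Hox genes are expressed along the body axis in the order in which they lie in their cluster, with low numbers towards the head and high numbers towards the tail. Genes of the same number in different clusters are paralogs with closely related homeodomains. The female reproductive tract is patterned by the high-numbered genes Hoxa9, Hoxa10, Hoxa11 and Hoxa13, and in mice Hoxa10 and Hoxa11 remain active in the adult uterine stroma, where loss of either impairs implantation and decidualization. Msx1 and Msx2 are homeodomain factors as well, but lie outside the Hox clusters.

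In these arrays the measured Hox genes differed by cluster. All 6 measured Hoxb genes were lower in the null array, by 1.30-fold to 1.89-fold. All 6 measured Hoxa and Hoxd genes with the numbers 9 to 11 were higher, by 1.30-fold to 1.74-fold. Hoxa5 and Hoxd8, with middle numbers in the same clusters, were lower by 1.11-fold and 1.12-fold on their brightest probe sets. Of all genes used, 47.7% were lower and 52.3% higher in the null array. Hoxd3, on the low-number side of its cluster, was higher by 2.39-fold, and no Hoxc gene had a signal above the floor in either array.

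Starting regions are shown for 4 genes that stand for these directions, taken from RefSeq on build GRCm38.p6. Each has 250 bases before the annotated start and 50 after it, written 5′ to 3′ on the gene's strand. Hoxb4, the 1 measured Hoxb gene with a window, is shown for the lower Hoxb genes, Hoxa11 and Hoxd10 for the higher genes of the high-number side, and Hoxd3 for the highest ratio. On the brightest probe sets, Hoxa11 had the highest and Hoxd10 the lowest ratio of these higher genes. Capitals mark any match, on either strand, to TAATTG, the type of site that Msx proteins bind, to TGATNNAT, the type bound jointly by Hox and Pbx proteins, or to TTTATNG, the type preferred by high-numbered Hox proteins.
Hoxb4, chr11:96318017-96318316, plus strand: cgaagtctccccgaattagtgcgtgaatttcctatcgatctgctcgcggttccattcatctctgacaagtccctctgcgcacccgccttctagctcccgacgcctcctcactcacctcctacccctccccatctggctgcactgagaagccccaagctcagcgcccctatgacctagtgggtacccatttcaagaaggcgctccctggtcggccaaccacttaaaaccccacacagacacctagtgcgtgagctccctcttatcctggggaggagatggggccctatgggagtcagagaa
Hoxa11, chr6:52245761-52246060, minus strand: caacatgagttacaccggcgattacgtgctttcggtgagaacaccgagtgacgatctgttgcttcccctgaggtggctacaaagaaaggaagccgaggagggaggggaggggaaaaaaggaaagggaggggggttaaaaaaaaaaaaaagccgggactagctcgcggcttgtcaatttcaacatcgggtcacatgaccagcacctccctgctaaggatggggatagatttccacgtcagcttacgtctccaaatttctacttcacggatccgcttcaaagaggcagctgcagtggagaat
Hoxd10, chr2:74691641-74691940, plus strand: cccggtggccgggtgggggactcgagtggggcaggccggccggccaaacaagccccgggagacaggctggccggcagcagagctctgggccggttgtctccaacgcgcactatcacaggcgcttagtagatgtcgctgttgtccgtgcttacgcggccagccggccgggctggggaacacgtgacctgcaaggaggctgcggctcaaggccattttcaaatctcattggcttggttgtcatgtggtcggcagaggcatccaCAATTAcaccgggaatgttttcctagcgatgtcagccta
Hoxd3, chr2:74711743-74712042, plus strand: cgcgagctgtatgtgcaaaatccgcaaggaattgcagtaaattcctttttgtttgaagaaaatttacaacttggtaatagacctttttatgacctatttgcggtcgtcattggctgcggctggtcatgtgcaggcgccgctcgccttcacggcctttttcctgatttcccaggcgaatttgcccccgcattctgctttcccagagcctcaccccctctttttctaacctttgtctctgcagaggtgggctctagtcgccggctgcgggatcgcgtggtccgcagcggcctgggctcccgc
The RefSeq promoter table held 19 of the 33 genes and 11 of the 16 with a usable signal. Hoxb4 was the 1 of 6 Hoxb genes among these 11, so the counts describe Hoxa and Hoxd genes above all. Among the 11, TAATTG was present in the windows of Hoxd10 and Hoxd8, whereas 8.0% of all 32851 windows of the same length held it. In Hoxd10 it covers bases 262 to 267 of the window, after the start. Of the higher genes of the high-number side, Hoxd10 alone had TAATTG in its window, so it does not stand for the others in this. TGATNNAT was present in a window of 1 of the 11 genes, Hoxd11, against 8.85% of all windows, and TTTATNG in 0 of 11, against 10.9%. The 4 windows shown held 1 match in all, that of TAATTG in Hoxd10. A match describes these letters and shows neither a binding site nor a cause.

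The values are linear MAS5 signals, which the authors had scaled to the same level in both arrays. The trimmed mean signal was 150 in each array, and Gapdh, whose ratio of 3' to 5' signal increases when RNA is degraded, had a ratio of 1.28 in the null and 0.967 in the control array. That of Actb was 2.33 in the null and 1.80 in the control array. A floor was set at the median of all non-control probe sets, at a signal of 30.1 in the null and 31.0 in the control array. Signals under it were raised to it, so that a fold with 1 array under the floor is a bound, written "at least". A signal under the floor does not show that a gene was silent. The signals of different probe sets depend on their probes and are not compared with each other. The ratios, given as log2 null minus control, compare each probe set with itself. The targeted genes matched the labels. Msx1 had a signal of 23.0 in the null and 1581 in the control array, lower by at least 52.6-fold, and Msx2 had 14.5 in the null and 63.7 in the control array, at least 2.12-fold lower. The labels do not say whether these probe sets lie in the deleted segments. As a scale of noise, the log2 ratio of 1 probe set had an SD of 0.27, taken from the differences within probe set pairs of 4690 genes. This SD covers probe noise and not the spread between mice or pools.

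Of the 33 Hox genes, 16 had their brightest probe set above the floor in at least 1 array, 15 of them in both. In neither array did the other 17 genes reach the floor. By probe set, 22 of 48 were used, of which 1 passed 2-fold higher and 2 passed 2-fold lower. Over all 20515 probe sets used, 1.31% passed 2-fold higher and 1.84% passed 2-fold lower. The median log2 ratio of the 16 Hox genes was 0.03, against 0.02 for all 11833 genes used, with 8 ratios above 0 and 8 below, where all genes had 52.3% above and 47.7% below. The family median was -0.15 with no floor, so its sign was not settled. The Hoxb median lay below 0 and the Hoxa and Hoxd medians above it, with Hoxa5 and Hoxd8 below 0.

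**Figure D1:**
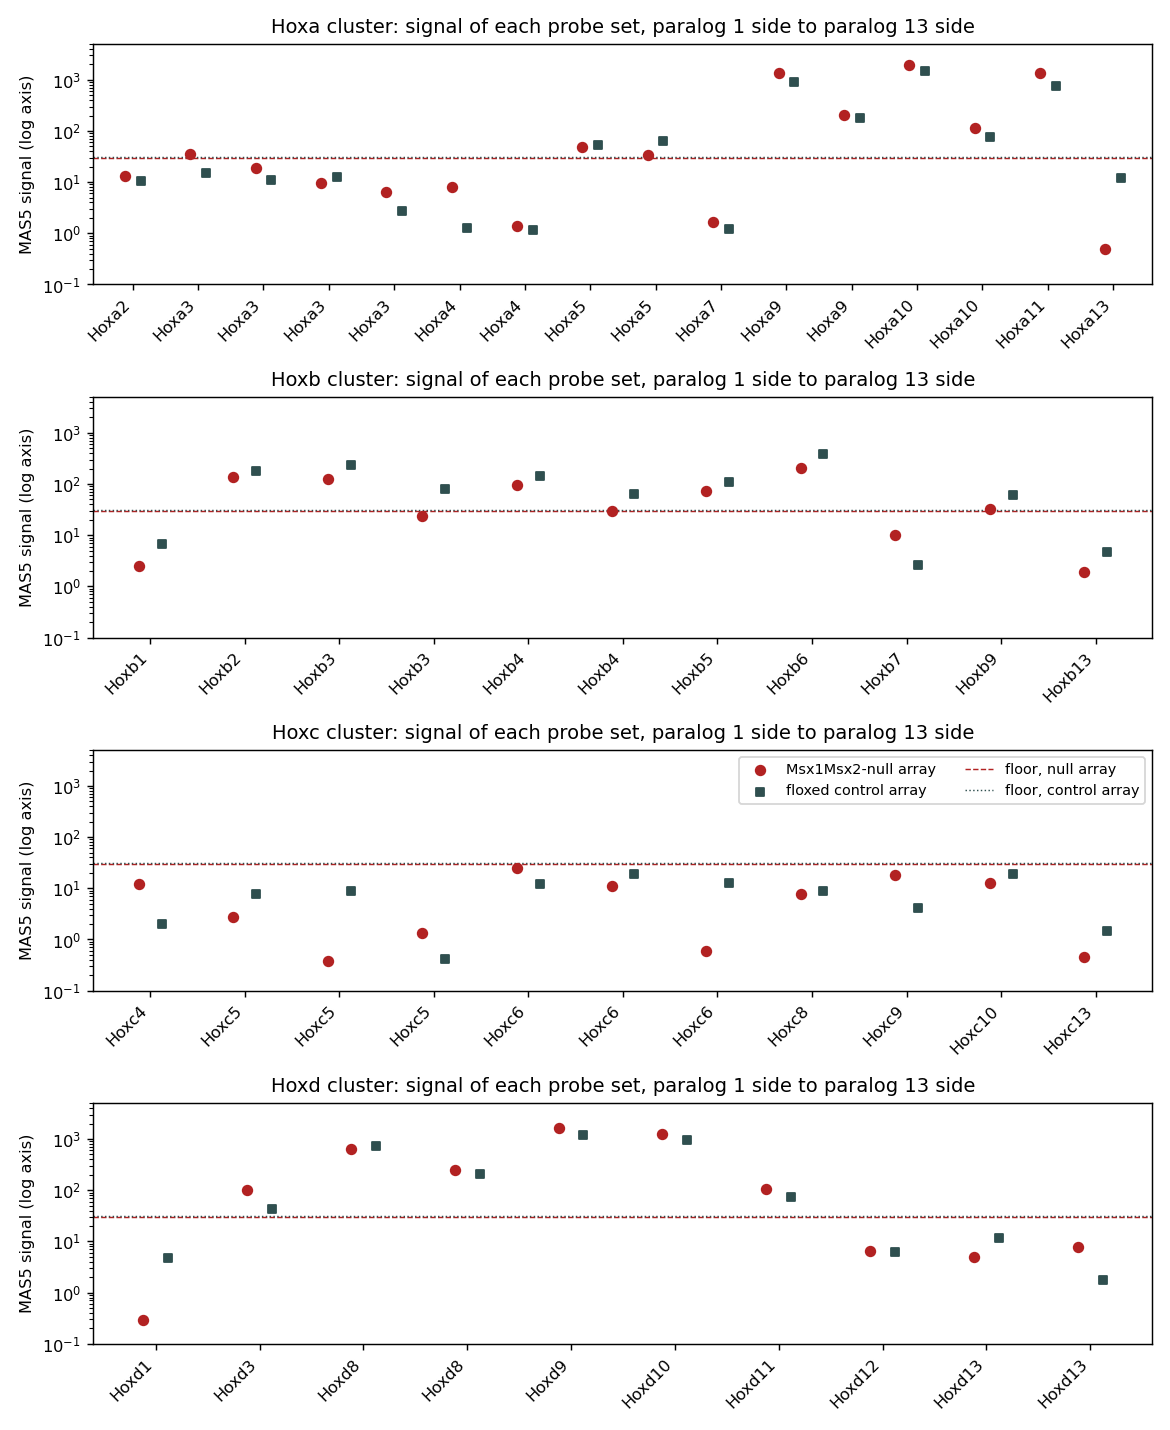
MAS5 signal (log axis) of each of the 48 Hox probe sets in the Msx1Msx2-null array (circles) and the floxed control array (squares), in 1 panel per cluster, ordered by gene number, with the floor of each array as a line. In the Hoxb panel the null signal is below the control signal for each probe set above the floor, in the Hoxa and Hoxd panels the null signal is above it for genes 9 to 11, and each Hoxc probe set is under the floor.

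Hoxb genes were lower in the null array at each measured position, from Hoxb2 near the low-number end to Hoxb9. Of 9 Hoxb genes, 6 could be measured in both arrays on their brightest probe set. Their median log2 ratio was -0.76, with a range of -0.92 to -0.38, and 6 of 6 were below 0, against 47.7% of all genes used. These genes share a cluster, were read from the same pools and are not separate observations. None of the 6 brightest probe sets passed 2-fold, and 4 of 6 were at least 1.5-fold lower, against 6.92% of all genes. Each of the 6 ratios lay more than 1 SD of probe noise below 0, as did 19.4% of all 11137 genes measured in both arrays, and 4 of 6 lay more than 2 SD below 0, as did 7.19% of those genes. With the SD of the dimmest tertile of genes, 0.32, all 6 lay beyond 1 SD and 3 of 6 beyond 2 SD. The shares of all genes, or of dim genes, beyond these wider bounds were not counted, so these counts have no comparison.

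Hoxb2, which patterns the hindbrain in the embryo, had a signal of 135 in the null and 176 in the control array, 1.30-fold lower. This was the ratio closest to 0 among the measured Hoxb genes. Hoxb3, another hindbrain gene, had 123 in the null and 233 in the control array on its brightest probe set, 1.89-fold lower. Its dimmer probe set had 23.2 in the null and 80.9 in the control array, at least 2.69-fold lower, so both lay in the same direction. Hoxb4, which is known for its part in blood stem cell expansion, had 97.5 in the null and 142 in the control array, 1.46-fold lower. Its second probe set had 29.9 in the null and 64.0 in the control array, at least 2.13-fold lower, with the null signal just under the floor. RefSeq places Hoxb4 within the span of Hoxb3, so these genes are neighbours with overlapping transcription units.

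In the middle of the cluster, Hoxb5 had a signal of 72.1 in the null and 112 in the control array, 1.55-fold lower. Hoxb6 had 209 in the null and 386 in the control array, 1.85-fold lower. Hoxb9, a thoracic patterning gene, had 32.2 in the null and 60.2 in the control array, 1.87-fold lower, and its null signal lay close to the floor. The remaining genes, Hoxb1, Hoxb7 and Hoxb13, were under the floor, with signals of at most 9.89 in the null and 6.70 in the control array. One further probe set is annotated to a pair of Hoxb genes and is no member. It had 133 in the null and 216 in the control array, a log2 ratio of -0.70.

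A transcript from the opposite strand of the same cluster was lower as well. Hoxb5os, whose RefSeq span overlaps Hoxb5 and Hoxb6, had a signal of 206 in the null and 553 in the control array, 2.68-fold lower. Among the cluster's flanking genes, Skap1, an adaptor protein of T cell signalling, had a log2 ratio of 0.23 with 54.4 in the null and 46.5 in the control array. Ttll6 and Calcoco2 were under the floor. The 1 flanking gene with a signal thus lay on the other side of 0, by less than 1 SD of probe noise.

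Hoxa genes with a measured ratio beyond 1 SD of probe noise on their brightest probe set lay at the high-number side of the cluster. Of 9 Hoxa genes, 4 could be measured in both arrays on their brightest probe set, and 3 of these, Hoxa9, Hoxa10 and Hoxa11, were higher in the null array. The median over the 5 Hoxa genes used was 0.41. Hoxa9 had a signal of 1328 in the null and 922 in the control array, 1.44-fold higher, and 206 in the null and 177 in the control array on its second probe set, 1.16-fold higher. Hoxa10 had 1944 in the null and 1459 in the control array, 1.33-fold higher. Its second probe set had 115 in the null and 75.8 in the control array, 1.52-fold higher. Hoxa11 had 1333 in the null and 767 in the control array on its single probe set, 1.74-fold higher. So 5 of 5 probe sets of these 3 neighbouring genes lay above 0, by log2 ratios of 0.22 to 0.80, against 52.3% of all genes used. They read the same pools and are not separate observations. Of the 4 measured Hoxa genes, 3 lay more than 1 SD above 0, as did 21.3% of all genes measured in both arrays. Hoxa11 was the 1 gene among them past 1.5-fold on its brightest probe set, a size reached by 6.79% of all genes.

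Hoxa11os, transcribed from the strand opposite to Hoxa11 and overlapping it in RefSeq, had a signal of 2216 in the null and 1656 in the control array, 1.34-fold higher. The sense and opposite strand transcripts therefore had ratios of the same sign. Which strand each probe set reads is taken from the platform annotation alone. Hoxa13, the gene at the high-number end, was under the floor, with 0.505 in the null and 12.0 in the control array, and no ratio is given for it.

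On the low-number side, Hoxa5, a gene of lung and axial patterning, had a signal of 48.9 in the null and 54.2 in the control array, 1.11-fold lower. Its other probe set, of the type that may bind related transcripts, had 34.0 in the null and 63.5 in the control array, 1.87-fold lower, so the size of the difference was not settled. Hoxa3 had 35.7 in the null and 15.1 in the control array on its brightest probe set, at least 1.15-fold higher, a sign that follows from the null signal alone being above the floor, and 3 other Hoxa3 probe sets were under it. Hoxa2, Hoxa4 and Hoxa7 were under the floor. Of the flanking genes, Skap2, next to the low-number end, had 265 in the null and 375 in the control array, a log2 ratio of -0.50, and Hibadh, a valine breakdown enzyme, had 0.04. Evx1, the homeobox gene beyond Hoxa13, and its opposite strand transcript Evx1os were under the floor.

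In the Hoxd cluster, genes 9 to 11 showed the same direction as their Hoxa paralogs. Of 8 Hoxd genes, 5 were measured in both arrays, with a median log2 ratio of 0.49. Among these 5, 4 lay more than 1 SD of probe noise above 0, as did 21.3% of all genes so measured. Genes of this cluster, too, were read from the same pools and are not separate observations. Hoxd9 had a signal of 1667 in the null and 1184 in the control array, 1.41-fold higher. Hoxd10 had 1237 in the null and 950 in the control array, 1.30-fold higher. Hoxd11 had 107 in the null and 72.2 in the control array, 1.48-fold higher. The limb and genital genes Hoxd12 and Hoxd13 were under the floor, with signals of at most 7.93 in the null and 11.6 in the control array. Hoxd8 was near 0, with 640 in the null and 714 in the control array, 1.12-fold lower, while its second probe set had 252 in the null and 206 in the control array, 1.22-fold higher. It was the 1 gene of 4 Hox genes with a pair of measured probe sets where the signs differed. Over all 4690 genes with such a pair, 63.9% had the same sign on both.

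Hoxd3 had the highest log2 ratio of the used Hox probe sets, with a signal of 101 in the null and 42.4 in the control array, 2.39-fold higher. It has 1 probe set, and the control signal lay close to the floor. With the floor at the 65th percentile its log2 ratio was 0.31 and no longer past 2-fold. RefSeq places Hoxd4 within its span, and a pair of probe sets annotated to both neighbours, which are no members, had log2 ratios of 1.17 and 0.43. The first of these had 116 in the null and 51.9 in the control array, and the second had 126 in the null and 93.9 in the control array. Hoxd3os1, from the opposite strand within the Hoxd3 span, had 171 in the null and 199 in the control array, a log2 ratio of -0.22, so it lay on the other side of 0 from Hoxd3. Hoxd1 was under the floor. Outside the cluster, Lnpk, an endoplasmic reticulum protein gene, had a log2 ratio of 0.77 on its brightest and -0.59 on its second probe set, Mtx2, a mitochondrial outer membrane gene, had -0.04, and the homeobox gene Evx2 was under the floor.

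**Figure D2:**
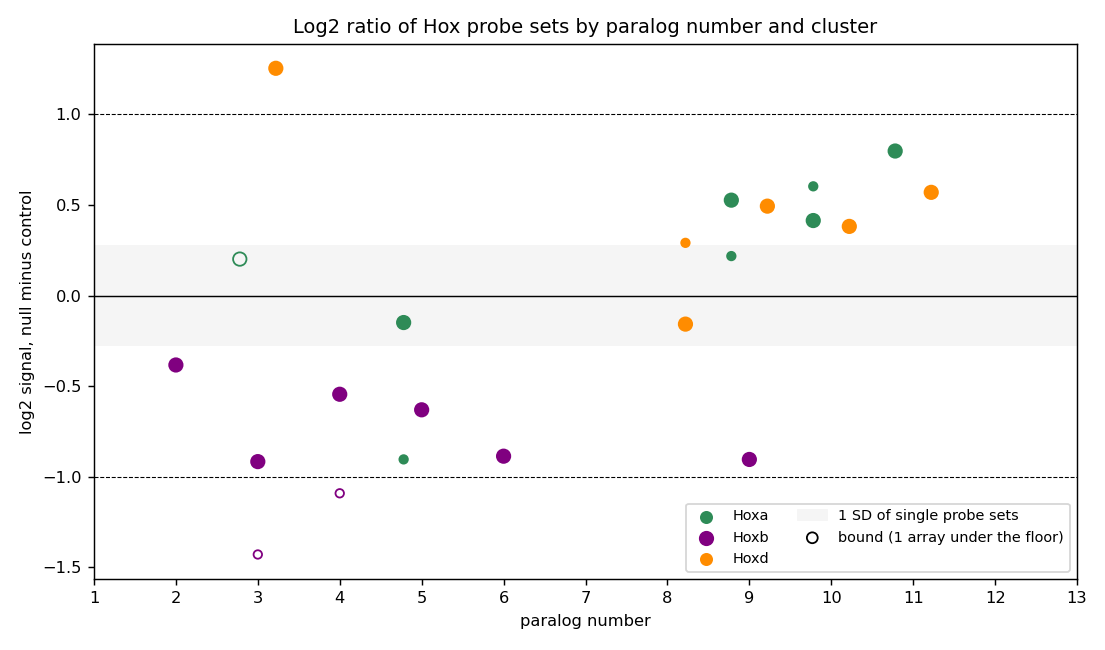
Log2 ratio (null minus control) of the 22 used Hox probe sets against gene number, coloured by cluster, with large symbols for the brightest probe set of a gene, small symbols for its other probe sets, open symbols for bounds, dashed lines at 2-fold and a band of 1 SD of probe noise (0.27). Hoxb symbols lie below 0 from gene 2 to gene 9, and Hoxa and Hoxd symbols from gene 9 to gene 11 lie above it.

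The 7 Hoxc genes were all under the floor on all 11 probe sets, with signals of at most 25.2 in the null and 19.1 in the control array. Hoxc4, Hoxc5, Hoxc6, Hoxc8, Hoxc9, Hoxc10 and Hoxc13 are the genes concerned. The genes listed as flanking this cluster had signals, with Hnrnpa1, an RNA-binding protein gene, at 1788 in the null and 1657 in the control array and a log2 ratio of 0.11, and the heterochromatin protein gene Cbx5 at 0.34. Smug1, a DNA repair glycosylase, and Calcoco1 had -0.21 and -0.17.

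Paralogs of the same number allow cluster and position to be set side by side. Among genes 9, Hoxa9 and Hoxd9 had log2 ratios of 0.53 and 0.49, while Hoxb9 had -0.90. Among genes 3, Hoxd3 had 1.25, Hoxa3 was at least 0.20 and Hoxb3 had -0.92. The span between the highest and the lowest was 1.43 for genes 9 and 2.17 for genes 3. Paralogs of clusters a and d lay closer, 0.03 apart for Hoxa10 and Hoxd10 and 0.23 apart for Hoxa11 and Hoxd11. For genes 5, Hoxa5 and Hoxb5 were both below 0, at -0.15 and -0.63. By number alone, the medians were -0.38 over 5 genes of numbers 1 to 4, -0.39 over 4 genes of numbers 5 to 8 and 0.49 over 7 genes of numbers 9 to 13. Of the low and middle numbers most measured genes were Hoxb genes, and of the high numbers Hoxb9 alone was, so number and cluster are not separated by these medians.

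**Figure D3:**
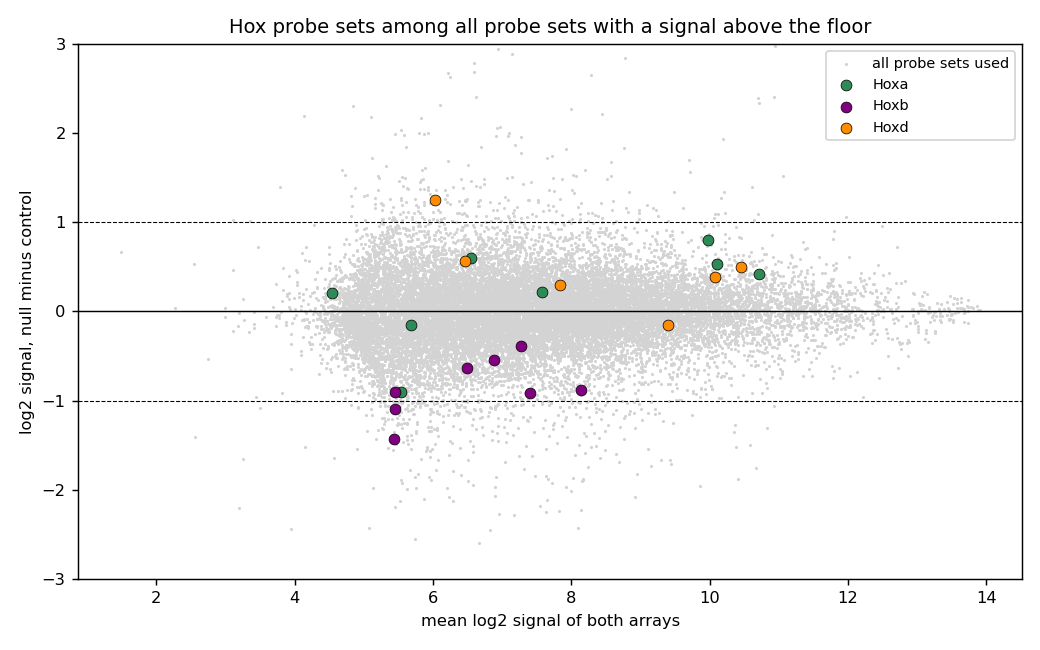
Log2 ratio (null minus control, signals under the floor raised to it) against mean log2 signal of both arrays for all 20515 probe sets used (grey) and the used Hox probe sets coloured by cluster, with dashed lines at 2-fold; 14 grey probe sets lie outside the plotted range of -3 to 3. The Hoxb points lie in the lower part of the grey cloud between mean log2 signals of about the floor and the middle of the range, and the Hoxa9 to Hoxa11 and Hoxd9 to Hoxd10 points lie in its upper part at bright signals.

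The Hox proteins bind DNA together with homeodomain cofactors of the Pbx, Meis and Pknox families. Of 8 cofactor genes on the array, 6 had a signal above the floor, 5 with ratios above 0 and 1 below, and 0 passed 2-fold, against 3.39% of all genes in either direction. Their median was 0.21. Pknox2 had a signal of 352 in the null and 523 in the control array, a log2 ratio of -0.57. Pknox1 and Pbx3 had 0.60 and 0.59 on their brightest probe sets. The second probe sets gave -0.05 for Pknox1 and 0.05 for Pbx3, so neither ratio was shared. Pbx2 had 0.36 and, on 2 dimmer probe sets, -0.59 and -0.37. Meis1 had 0.07. Meis2 had 0.01 and, on 3 dimmer probe sets, -0.40, 0.55 and 0.46, while Meis3 and Pbx4 were under the floor.

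Polycomb complexes hold Hox clusters silent and Trithorax complexes keep them active, while Cdx factors start their expression in the embryo. Of 25 such regulator genes on the array, 22 had a signal above the floor, 16 with ratios above 0 and 6 below, where 52.3% of all genes were above 0. Of the 22, 0 passed 2-fold, against 3.39% of all genes. The median was 0.16, and the range was -0.33 to 0.44. Wdr5, Kdm6b, Suz12, Men1 and Bmi1 were above 0 on their brightest probe set and below 0 on some dimmer measured ones. Ezh1 and Kdm6a went the opposite way, while Kmt2a, Phc2 and Rnf2 were above 0 on each measured probe set. The Pcgf2 ratio was a bound whose sign follows from the null signal alone being above the floor. Ezh2, the enzyme that places the Polycomb mark, had a signal of 364 in the null and 268 in the control array, a log2 ratio of 0.44. Rbbp5, a core subunit of Trithorax-type methyltransferases, and Bmi1, a Polycomb ring finger protein, had 0.41 each, with -0.36 on a second Bmi1 probe set. Cbx8, a Polycomb chromodomain protein, had -0.33. Cdx1, Cdx2 and Cdx4 were under the floor.

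Some genes are described in other studies as dependent on Hoxa10 or Hoxa11 in the uterus or in endometrial cells. Of 7 such genes 6 had a signal, 3 with ratios above 0 and 3 below. Of the 6, 1 passed 2-fold higher and 1 passed 2-fold lower, against 3.39% of all genes in either direction. Itgb3, the integrin beta3 chain, had 392 in the null and 140 in the control array, 2.80-fold higher. Lif, a cytokine of the uterine glands, was lower by 2.39-fold, with 139 in the null and 332 in the control array. The prostaglandin E2 receptor genes Ptger3 and Ptger4, which need Hoxa10 in mouse stroma, had log2 ratios of -0.37 and -0.04. Emx2, a homeobox gene repressed by the Hoxa10 protein in human endometrial cells, had 0.16, and the progesterone receptor gene Pgr had 0.49. Igfbp1 was under the floor. These genes showed no common direction, but the list mixes genes described as needing Hoxa10 with Emx2, described as repressed by it. A shared direction could therefore not be looked for, and a link to the higher Hoxa10 and Hoxa11 signals was not tested.

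Markers of some cell types had ratios on the same side of 0 as a part of the Hox genes. All 7 stromal markers had signals above the floor, as the labelled cell type requires, and so did the 6 epithelial markers on the array. Stromal markers had a median near 0, at 0.04, with 4 of 7 ratios above 0. Single stromal markers ran from -0.32 for Vim to 0.63 for Hand2, the latter beyond 2 SD of probe noise. Their summed signal was 32406 in the null and 32385 in the control array. On the side of the Hoxb genes, which held 47.7% of all genes used, were endothelial markers, with 5 of 5 ratios below 0. They had a median of -0.76 and a summed signal of 1867 in the null and 2822 in the control array. Pericyte markers had 4 of 4 below 0, a median of -0.54 and a sum of 6069 in the null and 8723 in the control array. Macrophage markers had 4 of 4 below 0, a median of -0.61 and a sum of 2128 in the null and 3205 in the control array. Epithelial markers had 5 of 6 below 0, a median of -0.25 and a sum of 5782 in the null and 7863 in the control array, and ran far apart. The gland transcription factor gene Foxa2 was 4.54-fold lower, with 87.4 in the null and 397 in the control array. The keratin gene Krt18 was 2.09-fold lower and Krt19 was 2.05-fold higher.

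On the side of Hoxa9 to Hoxa11 and Hoxd9 to Hoxd11, which held 52.3% of all genes used, were smooth muscle markers, with 4 of 5 ratios above 0. They had a median of 0.41 and a summed signal of 9916 in the null and 7723 in the control array. Natural killer markers had 3 of 3 above 0, a median of 0.87 and a sum of 2732 in the null and 1507 in the control array. Of 3 mesothelial markers 1 was above the floor, Wt1, which uterine stroma also expresses, at 0.75, and the list summed to 531 in the null and 311 in the control array. No other marker on the array was under the floor. Each sum is weighted towards its brightest probe sets, such as Col3a1 in the stromal list and Rgs5 in the pericyte list. Des is counted in both the stromal and the smooth muscle list. The part of these cell types in the Hox ratios was not tested. In a pool of cells, fewer cells of a type and less RNA per cell cannot be told apart.

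**Figure D4:**
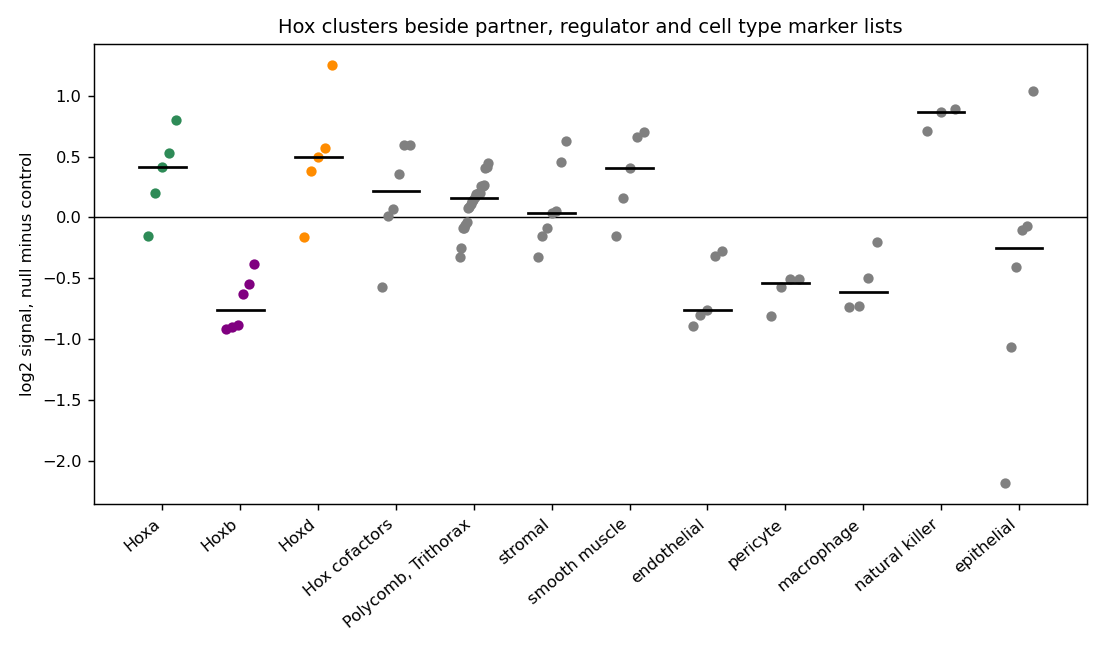
Log2 ratio (null minus control) of the genes with a signal above the floor in each Hox cluster and in the cofactor, regulator and cell type marker lists, with 1 point per gene from its brightest probe set and a bar at the median. The Hoxb points lie below 0 with a median of -0.76, as do the endothelial, pericyte and macrophage points, and the Hoxa and Hoxd medians of 0.41 and 0.49 lie near the smooth muscle median of 0.41.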

How the data were processed

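Uterine stromal cell RNA, pooled per genotype, was hybridized to Affymetrix 3' expression arrays, 1 array for Msx1Msx2-null and 1 for floxed control mice, from 100 ng of total RNA per the labels' protocols. Per the submitters' processing notes, the deposited linear signal intensities come from MAS5 as run by the authors in Affymetrix Expression Console 1. The sources used here do not give its background and scaling settings. The algorithm subtracts mismatch signal, which makes ratios of dim probe sets unstable. Of 45101 probe sets, 34945 had 1 gene symbol in the platform annotation, 932 had several, 9160 had none and 64 were controls. Probe sets with several symbols were left out of all counts, and 3 of them are annotated to Hox genes.

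Log2 ratios were computed with pandas 2.3.3 in Python, with the floor described above and no further scaling. A gene was represented by its brightest probe set. Genes were called by size at 2-fold, since 1 array per genotype allows no test. The script that makes the calls was tested on simulated data with known folds. These folds were larger than 2-fold and lay in bright probe sets with little noise. The test thus checks the script and not the calls of dim probe sets. The rule named every Hox gene with a signal, Msx1, Msx2, and of the other lists the members past 2-fold and up to 4 with the largest ratios; marker lists are otherwise given by counts, medians and sums. Other list members named in the text were chosen after their values were seen. The members and lists were chosen with earlier results of these data known. The motifs were chosen later. Alternatives were other floors, an offset, other scalings, other probe set choices and a lower fold. The number of arrays limits the precision.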

Additional observations from a re-analysis of the deposited data

How the results depend on the processing

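Under the 7 alternatives that give ratios, each of the 22 used Hox probe sets kept the sign of its ratio wherever a value could be had, with the 8 Hoxb probe sets between -1.80 and -0.35. Of 145 single values 138 moved by less than 1 SD of probe noise. Those that moved were the dim Hoxa3, Hoxb3, Hoxb4 and Hoxd3 probe sets, and Hoxd3 had 0.31 with the floor at the 65th percentile. Much of this stability was fixed beforehand. A ratio with neither signal raised to the floor stays identical with no floor, a lower floor or other probe sets left out. The offset cannot change the sign of such a ratio. Its sign could change under the higher floor and the other scalings alone, so the kept signs and small moves are a weak check. The counts of probe sets past 2-fold depended on the floor. With no floor 10 of 48 were higher and 11 lower, against 10.9% higher and 10.8% lower of all 34945 probe sets with 1 symbol, and 26 of the 48 were under the floor in both arrays. With the floor at the 65th percentile 0 were higher and 0 lower. With the floor at the 35th percentile 2 were higher. With the offset of 16, 1 was lower. At 1.5-fold 3 were higher and 7 lower. By gene, 2 of 16 were at least 1.5-fold higher and 4 lower, against 6.79% and 6.92% of all genes. The shares of all probe sets were not counted for the changed floors, the offset or 1.5-fold, so those counts of probe sets have no comparison.

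The median of the Hox genes was near 0 and changed sign, to -0.15 with no floor and -0.15 without _x_at and _s_at probe sets. It was 0.31 at the higher and 0.22 at the lower floor, 0.13 with the offset and 0.13 with the median over probe sets. The Hoxb median was -0.89 with no floor, -0.54 at the higher floor and -0.60 with the offset. The Hoxd median was 0.22 with no floor. For numbers 1 to 4 the median was -0.023 with no floor and -0.16 at the lower floor. For numbers 5 to 8 it was -0.16 with no floor, -0.16 at the lower floor and -0.58 with the median over probe sets. For numbers 9 to 13 it was 0.22 with no floor. The cofactor median was 0.040 with no floor, 0.040 at the lower floor, 0.060 without _x_at and _s_at probe sets and 0.020 with the median over probe sets. The regulator median was 0.093 with the median over probe sets. Where the floor was changed, the number of genes used changed with it, and other causes were not tested. Quantile normalization and centring on the median moved none of these medians by more than probe noise and kept each sign. The Hoxc genes have a value with no floor alone, with ratios between -1.71 and 2.60 among signals under the floor. No paired analysis was possible because each genotype has 1 array, and for the same reason no replicate could be left out.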
